A study of Mus musculus with 18 samples.

Results

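The 39 genes described here code for the machinery of mitosis: the kinase Cdk1 and its cyclins, the Polo and Aurora kinases, the spindle assembly checkpoint, the kinetochore, the spindle motors, the proteins of cytokinesis, and Top2a and Mki67. They were chosen by name from a fixed list, and all 39 of 39 were found by symbol among the 55385 genes of the deposited table. All 39 passed the filter on low counts that left 18634 genes for testing. The members and the further gene lists were drawn up by function and not by a threshold on their values. Earlier results of these data were known when they were chosen.

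Poly(A) RNA was sequenced from the spleens of adult mice in 3 groups of 6 animals, each with 3 females and 3 males. In Dp16_2xIFNRs mice a stretch of chromosome 16 between Lipi and Zbtb21 is duplicated on 1 chromosome, and the interferon receptor genes inside it are returned to their usual dose. Dp16 mice have the same duplication with the receptor genes included. WT mice are C57BL/6J. The labels give no treatment in any of the 3 groups. The age label reads 17.7 to 18 for Dp16_2xIFNRs, 17.1 to 18 for Dp16 and 17.1 to 18 for WT under a tag of days after conception, and its unit is not interpreted here. None of the 39 genes lies in the extra interval or on chromosome 16. They sit on 16 chromosomes, with 7 of them on chromosome 2.

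Cells enter mitosis when Cdk1 bound to cyclin B phosphorylates its substrates, condenses the chromosomes and starts the building of the spindle. The checkpoint then holds the anaphase-promoting complex inactive until each kinetochore is attached, after which cyclin B and securin are degraded and the sister chromatids part. Most of these genes are transcribed in late S phase, G2 and mitosis, so in a tissue their RNA is known as a mark of dividing cells. The spleen of the adult mouse makes red blood cells as well as housing lymphocytes, and erythroid precursors and germinal centre B cells are among its dividing cells. In bulk RNA, more dividing cells and more RNA per dividing cell cannot be told apart.

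Many mitotic promoters carry a pair of elements that are known to be bound in step with the cell cycle. The cell cycle genes homology region (CHR) is bound by the MuvB core of the DREAM complex in resting cells and of the B-Myb and FoxM1 complexes in dividing cells, and CCAAT boxes are bound by NF-Y. RefSeq promoters on GRCm38.p6, from 250 bases before to 50 bases after the start of transcription, were at hand for 33 of the 39 genes; Ccna2, Tpx2, Aurkb, Incenp, Spc24 and Kif20a had no entry. The promoters below show 1 member of most role groups, with the CHR letters (TTTGAA or TTCGAA) and the CCAAT letters in capitals on either strand, so that ATTGG and TTCAAA are matches read from the other strand. Pttg1, the member with the smallest change in both comparisons with WT, is also shown. Each run covers 120 bases before to 30 bases after the start, 5′ to 3′ along the gene.
Cdk1: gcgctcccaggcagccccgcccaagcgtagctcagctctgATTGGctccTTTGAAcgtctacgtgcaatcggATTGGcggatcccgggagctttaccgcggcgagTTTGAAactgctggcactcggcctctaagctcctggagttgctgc
Ccnb2: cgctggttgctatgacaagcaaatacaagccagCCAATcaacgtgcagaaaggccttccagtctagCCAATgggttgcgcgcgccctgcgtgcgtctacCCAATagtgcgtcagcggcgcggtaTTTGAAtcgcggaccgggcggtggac
Ube2c: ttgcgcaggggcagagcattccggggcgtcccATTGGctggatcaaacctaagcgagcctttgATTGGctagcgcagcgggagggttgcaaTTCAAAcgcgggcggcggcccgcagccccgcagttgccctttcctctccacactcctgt
Cdca8: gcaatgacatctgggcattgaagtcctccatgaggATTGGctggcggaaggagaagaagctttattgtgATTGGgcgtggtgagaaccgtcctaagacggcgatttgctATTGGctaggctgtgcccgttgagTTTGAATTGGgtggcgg
Ttk: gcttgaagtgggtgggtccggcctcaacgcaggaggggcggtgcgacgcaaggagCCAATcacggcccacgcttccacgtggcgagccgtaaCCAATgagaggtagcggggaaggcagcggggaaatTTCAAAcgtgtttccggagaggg
Cenpa: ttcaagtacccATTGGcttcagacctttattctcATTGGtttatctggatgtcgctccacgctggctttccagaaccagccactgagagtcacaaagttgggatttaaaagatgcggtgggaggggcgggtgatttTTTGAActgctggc
Kif11: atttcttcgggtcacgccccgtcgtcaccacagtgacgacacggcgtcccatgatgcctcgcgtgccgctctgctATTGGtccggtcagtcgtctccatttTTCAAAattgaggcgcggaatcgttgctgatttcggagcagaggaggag
Prc1: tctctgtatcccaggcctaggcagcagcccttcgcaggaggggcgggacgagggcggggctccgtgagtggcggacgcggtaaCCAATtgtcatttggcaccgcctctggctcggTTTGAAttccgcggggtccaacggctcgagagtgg
Pttg1: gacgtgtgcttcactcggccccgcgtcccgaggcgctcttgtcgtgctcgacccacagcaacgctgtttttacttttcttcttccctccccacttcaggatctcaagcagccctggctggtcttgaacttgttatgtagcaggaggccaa

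Their positions on GRCm38 are Cdk1 chr10:69352883-69353032 (minus strand), Ccnb2 chr9:70421525-70421674 (minus strand), Ube2c chr2:164769809-164769958 (plus strand), Cdca8 chr4:124936888-124937037 (minus strand) and Ttk chr9:83834569-83834718 (plus strand). The remaining windows are Cenpa chr5:30666766-30666915 (plus strand), Kif11 chr19:37376262-37376411 (plus strand), Prc1 chr7:80294331-80294480 (plus strand) and Pttg1 chr11:43425952-43426101 (minus strand). In Cdca8 the CHR and a CCAAT box share a letter. The usual layout, CCAAT boxes upstream of a CHR close to the start, can be read in Ccnb2, Ube2c, Ttk, Cenpa, Kif11 and Prc1, while the Pttg1 run holds neither set of letters. In GENCODE vM21, however, Pttg1 spans chr11:43420250-43426251, so its run lies inside the gene and not upstream of that start. The Cdca8 run also lies inside its GENCODE gene (chr4:124918465-124939311). Bases 21 to 40 after the RefSeq start lay in a transcript of the gene for 28 of the 33 promoters. Whether the letters relate to the size of a change was not tested.

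Over the whole windows, 26 of 33 member promoters held a CHR match (78.8%), against 19.4% of all 27025 promoters of the same length. A CCAAT match was present in 25 (75.8%), against 37.9% of all promoters, and both were present in 23 (69.7%), against 7.7%. At least 2 CCAAT matches were found in 17 member promoters (51.5%), against 12.2%. For E2F the search took TTGGCGC as well as the form spelled TTCCCGC, then the form spelled TTGCCGC, and last the form spelled TTCGCGC, on either strand. These letters were in 4 member promoters (12.1%), against 9.69% of all promoters. Among the 12118 promoters of genes with 10 or more counts a library on average, the shares were 14.5% for CHR, 38.5% for CCAAT and 16.1% for E2F, so the members lay above that background for CHR and CCAAT. The members' E2F share of 12.1% rests on 4 promoters and lay between 9.69% and 16.1%, so no difference is read from it. A CHR match began within 50 bases of the start in 24 members (72.7%), against 5.29%, a distance chosen after the matches were seen. Birc5, Mad2l1, Pttg1, Nuf2 and Nusap1 held neither a CHR nor a CCAAT match. Of all members, Birc5 had the largest log2 fold change in Dp16_2xIFNRs vs WT (1.68) and Pttg1 the smallest (0.40). CHR and CCAAT matches may overlap each other, and a match is a description of the letters, not a bound site.

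**Figure D1:**
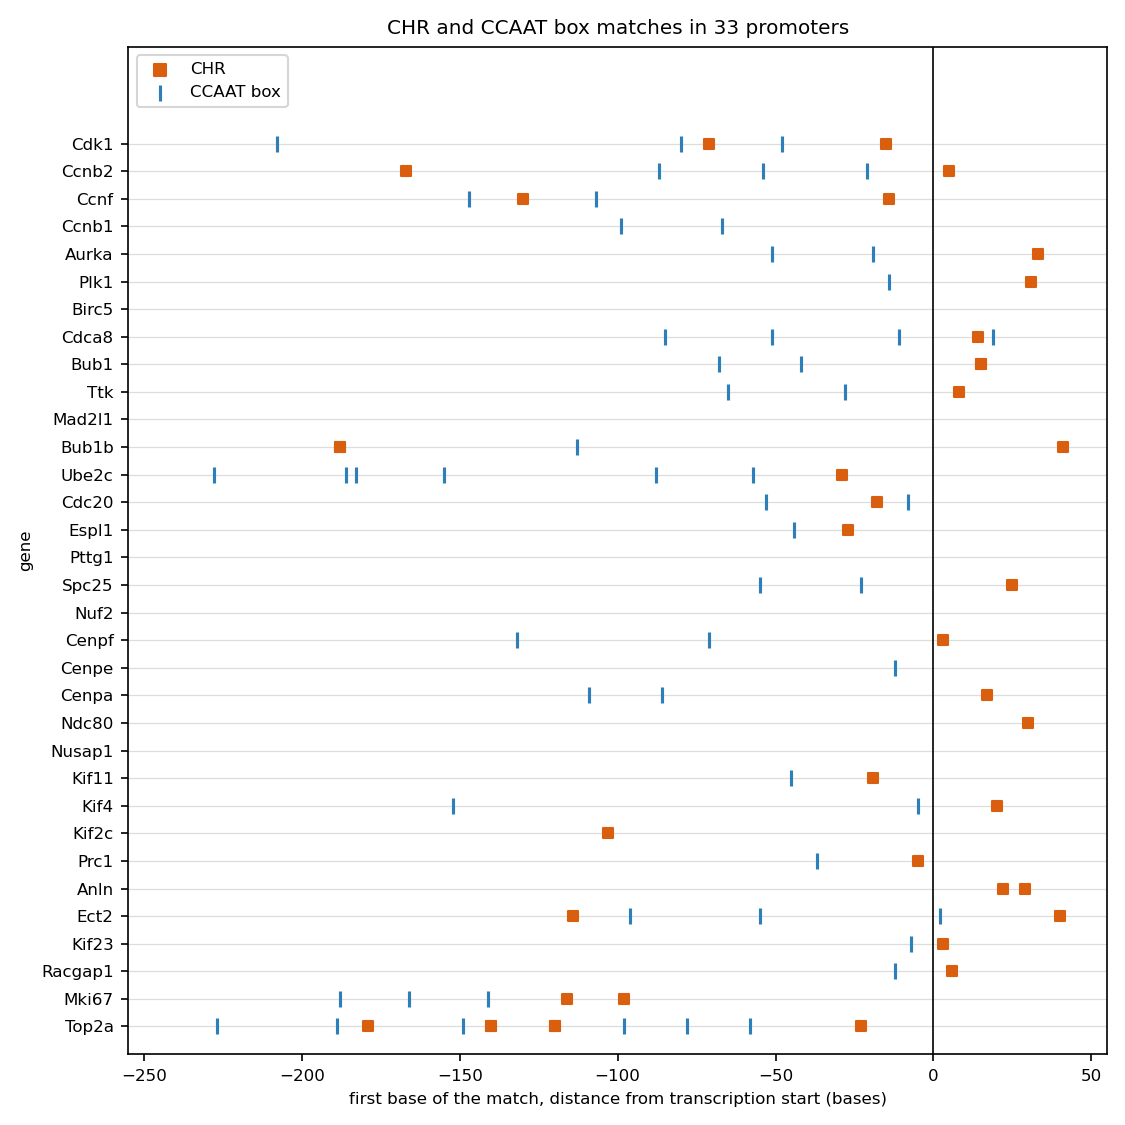
Positions of CHR (orange squares) and CCAAT (blue bars) matches along 33 member promoters, with the distance of each match's first base from the transcription start on the x axis in bases. CHR matches began within 50 bases of the start in 24 of the 33 promoters, and 5 promoters (Birc5, Mad2l1, Pttg1, Nuf2, Nusap1) show none.

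All 39 genes were higher in both trisomic groups than in WT. In Dp16_2xIFNRs vs WT 39 rose and 0 fell at an adjusted p below 0.05 (edgeR quasi-likelihood test, Benjamini-Hochberg over 18634 genes), where 17.3% of all tested genes were called higher. In Dp16 vs WT 39 rose and 0 fell, where 16.6% of all tested genes were called higher. The median log2 fold change of the members was 1.16 in Dp16_2xIFNRs vs WT (2.23-fold, from 0.40 for Pttg1 to 1.68 for Birc5). It was 1.19 in Dp16 vs WT (2.27-fold, from 0.40 for Pttg1 to 1.62 for Ube2c), and the medians of all tested genes were -0.01 in both. At least 2-fold rises were seen in 29 members in Dp16_2xIFNRs vs WT, where 4.29% of genes were called higher by that much, and in 34 members in Dp16 vs WT, where 4.14% were. Both comparisons use the same 6 WT libraries. Between Dp16_2xIFNRs and Dp16 none of the members passed the test.

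The summed level of the 39 genes, in CPM (read counts scaled to the TMM-adjusted library total), was 3818, 4173 and 5794 (lowest, median and highest library) in Dp16_2xIFNRs, 4124, 4493.5 and 6039 in Dp16 and 1066, 1853 and 3802 in WT. Each trisomic library lay above each WT library on this sum, but by a narrow margin over the highest WT library. That library, WT replicate 2, was the highest of the 6 WT libraries for 38 of the 39 genes, and WT replicate 4 was the lowest for 38. For single genes, all 6 Dp16_2xIFNRs libraries exceeded all 6 WT libraries in 19 members, where 6.83% of genes did so, and all 6 Dp16 libraries did in 22, where 8.48% did. Without WT replicate 2, an alternative chosen after seeing the data, these counts were 38 and 38, where 11.4% and 12.6% of genes did so. The median log2 fold changes without that library were 1.36 in Dp16_2xIFNRs vs WT and 1.42 in Dp16 vs WT.

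**Figure D2:**
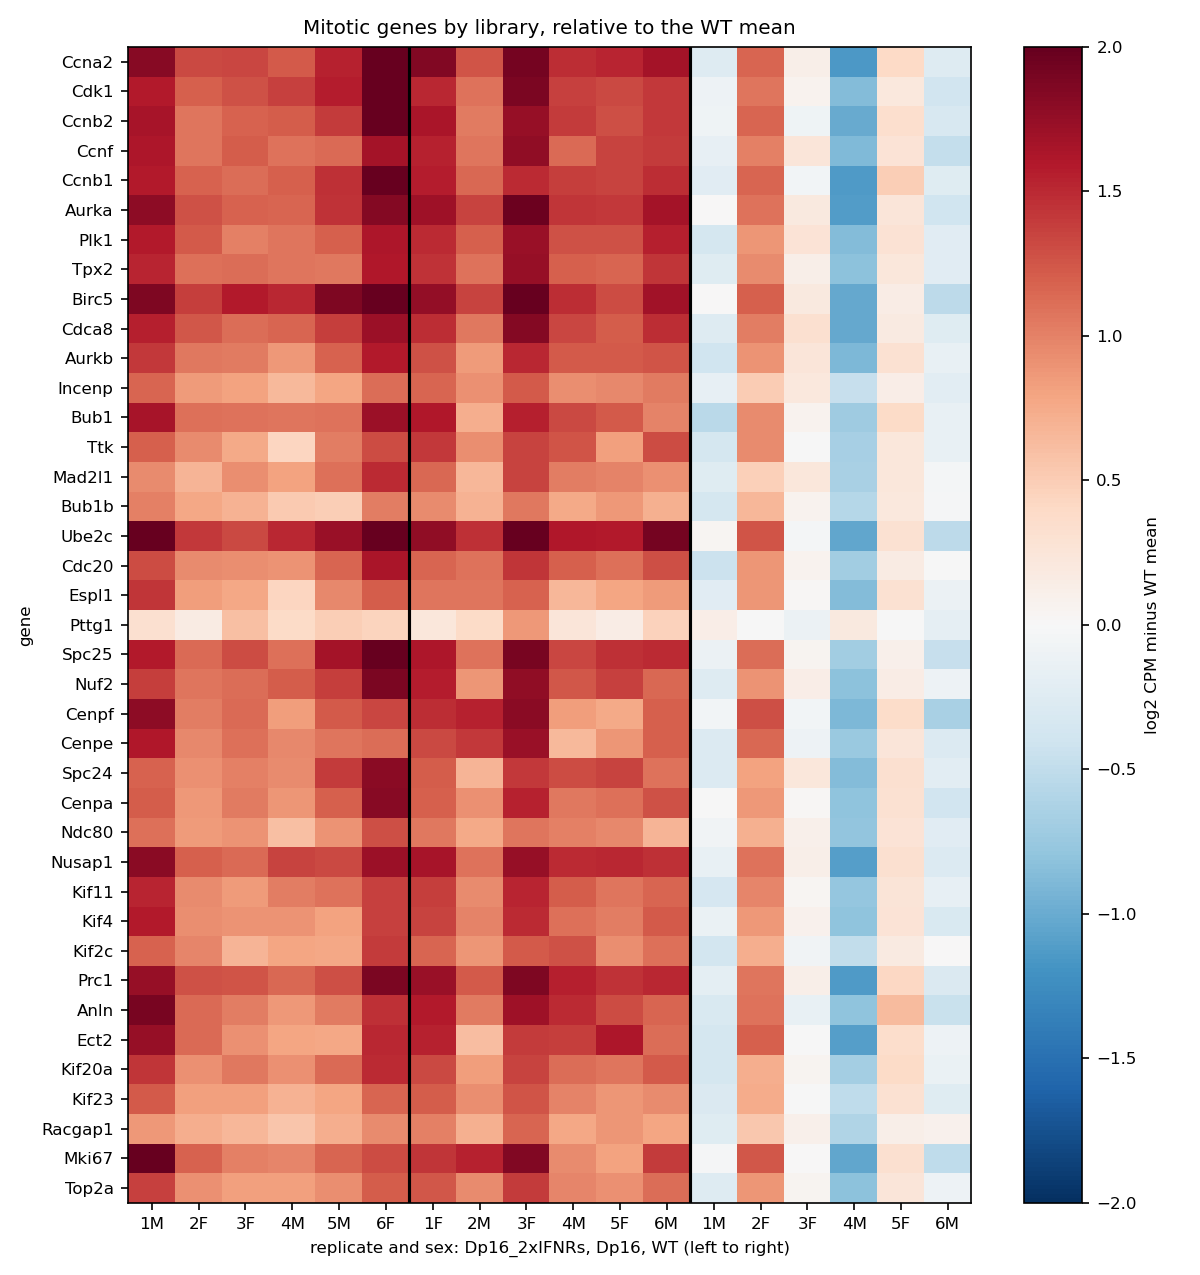
Log2 CPM of each of the 39 genes (rows, ordered by role) in each of the 18 libraries (columns, replicate number with F for female and M for male), minus the gene's WT mean. The 6 Dp16_2xIFNRs and 6 Dp16 libraries are above the WT mean for nearly every gene, WT replicate 2 is the reddest WT column, WT replicate 4 is the bluest, and Pttg1 is the palest row.

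The cyclins and Cdk1 rose by similar amounts, 5 of 5 in each comparison with WT. Cdk1, the kinase that drives entry into mitosis, had 89.6, 108 and 162 CPM (lowest, median, highest) in Dp16_2xIFNRs, 83.6, 103 and 144 in Dp16 and 21.6, 38.8 and 82.6 in WT. Every trisomic library exceeded every WT library, the nearest pair being 83.6 in Dp16 and 82.6 in WT. The log2 fold change was 1.47 ± 0.23 (SE) in Dp16_2xIFNRs vs WT (edgeR adjusted p = 0.000214) and 1.37 ± 0.23 in Dp16 vs WT (adjusted p = 0.000376). Ccna2, cyclin A2, which acts with Cdk2 in S phase and with Cdk1 before mitosis, had 212, 246 and 372 CPM in Dp16_2xIFNRs, 218, 272 and 343 in Dp16 and 40.8, 87.0 and 202 in WT. Its groups did not overlap with WT either. Its log2 fold changes were 1.49 ± 0.25 in Dp16_2xIFNRs vs WT (adjusted p = 0.00045) and 1.53 ± 0.25 in Dp16 vs WT (adjusted p = 0.000408). Exons of Ccna2 share 12.5% of their bases with Exosc9 on the opposite strand, which held 29837 counts over all libraries beside 166756 for Ccna2. Whether reads were assigned by strand is not given in the sources used here.

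Ccnb1, cyclin B1, had 53.1, 61.8 and 102 CPM in Dp16_2xIFNRs, 54.2, 65.9 and 72.5 in Dp16 and 11.2, 22.3 and 54.7 in WT. Ccnb2, cyclin B2, had 92.0, 109 and 176 CPM in Dp16_2xIFNRs, 90.6, 116 and 148 in Dp16 and 22.0, 41.3 and 98.9 in WT. For both B cyclins the highest WT library reached into the range of each trisomic group. The log2 fold changes of Ccnb1 were 1.37 ± 0.26 in Dp16_2xIFNRs vs WT (adjusted p = 0.000952) and 1.30 ± 0.26 in Dp16 vs WT (adjusted p = 0.00151), and those of Ccnb2 were 1.36 ± 0.26 (adjusted p = 0.000912) and 1.33 ± 0.26 (adjusted p = 0.00114). The pseudogenes Ccnb1-ps and Ccnb2-ps held 52 and 110 counts over all 18 libraries. Ccnf, cyclin F, a substrate receptor of an SCF ubiquitin ligase, had 78.2, 84.1 and 119 CPM in Dp16_2xIFNRs, 78.0, 96.9 and 127 in Dp16 and 20.2, 38.6 and 75.3 in WT, with no overlap with WT. It rose by 1.27 ± 0.21 on the log2 scale in Dp16_2xIFNRs vs WT (adjusted p = 0.000308) and by 1.32 ± 0.21 in Dp16 vs WT (adjusted p = 0.000253).

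**Figure D3:**
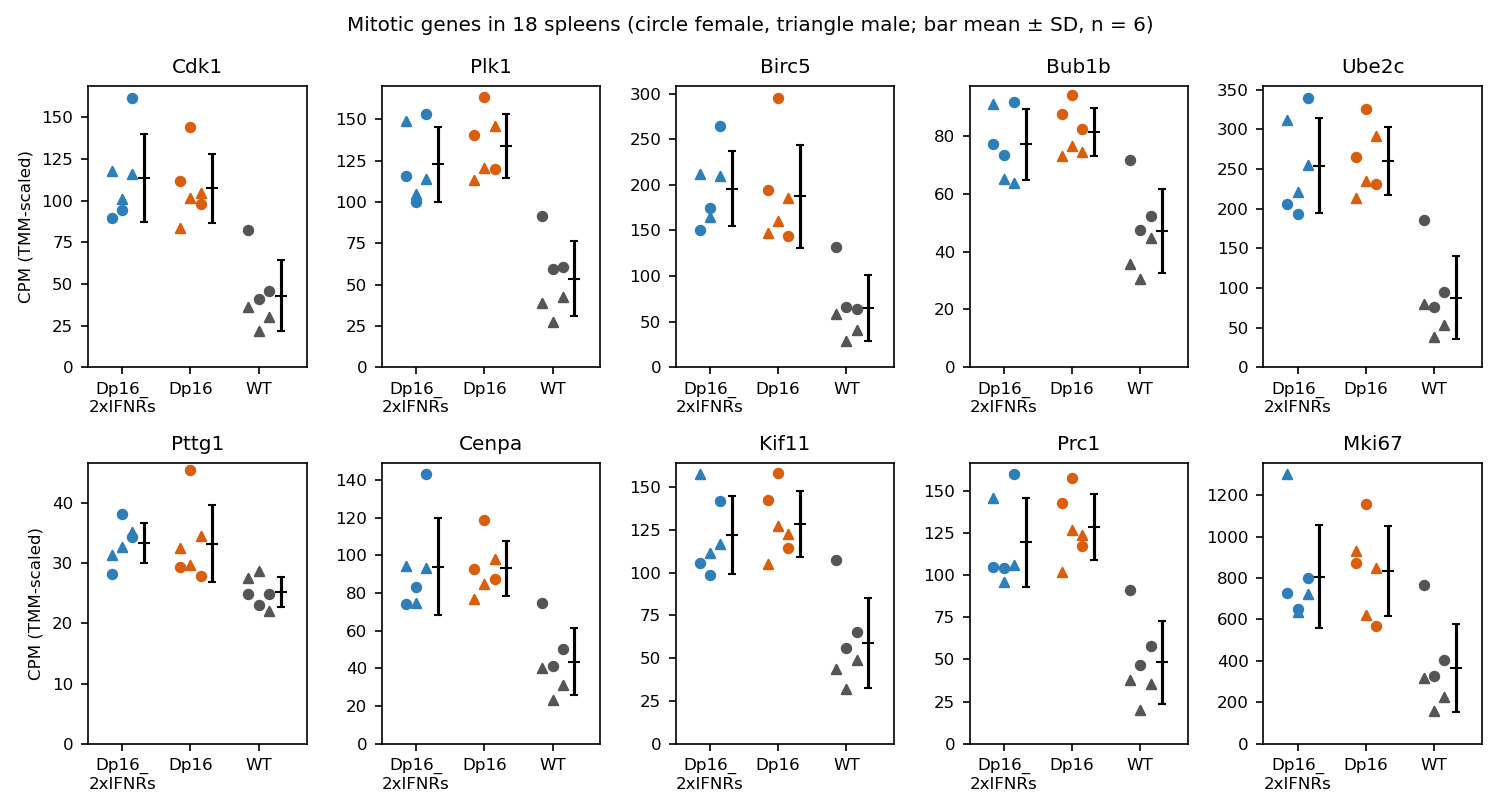
CPM of 10 of the 39 genes by library in Dp16_2xIFNRs, Dp16 and WT (circles female, triangles male, bars mean ± SD, n = 6 each). Both trisomic means lie above the WT mean in each panel, Pttg1 shows the smallest change, and WT replicate 2 is the top WT point in every other panel.

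The mitotic kinases that build the spindle poles rose in both comparisons, 3 of 3 in each. Plk1, the Polo-like kinase of centrosome maturation and mitotic entry, had 99.6, 115 and 153 CPM in Dp16_2xIFNRs, 113, 130.2 and 163 in Dp16 and 27.3, 51.0 and 91.7 in WT. Aurka, the Aurora A kinase of the spindle poles, had 66.4, 76.1 and 105 CPM in Dp16_2xIFNRs, 75.1, 86.4 and 115 in Dp16 and 13.5, 31.8 and 62.8 in WT. Neither gene's trisomic libraries overlapped with WT. Plk1 rose by 1.26 ± 0.20 on the log2 scale in Dp16_2xIFNRs vs WT (edgeR adjusted p = 0.000204) and by 1.38 ± 0.20 in Dp16 vs WT (adjusted p = 0.000117). For Aurka the rises were 1.39 ± 0.25 (adjusted p = 0.000637) and 1.50 ± 0.25 (adjusted p = 0.0004). Tpx2, which activates Aurora A on spindle microtubules, rose by 1.22 and 1.30, also without overlap with WT.

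The chromosomal passenger complex, in which the kinase Aurora B corrects faulty attachments at the centromere and later acts at the midzone, rose in 4 of 4 members. Birc5, survivin, its targeting subunit, had 151, 192 and 264 CPM in Dp16_2xIFNRs, 143, 173 and 295 in Dp16 and 28.4, 61.2 and 132 in WT. Its libraries did not overlap with WT, and it showed the largest log2 fold change of the 39 in Dp16_2xIFNRs vs WT, 1.68 ± 0.28 (edgeR adjusted p = 0.00037), and 1.59 ± 0.27 in Dp16 vs WT (adjusted p = 0.000565). Aurkb, Aurora B itself, had 49.8, 59.4 and 82.2 CPM in Dp16_2xIFNRs, 49.1, 64.7 and 77.4 in Dp16 and 14.7, 28.5 and 51.0 in WT, with the top WT library inside both trisomic ranges. Its log2 fold changes were 1.16 ± 0.19 in Dp16_2xIFNRs vs WT (adjusted p = 0.000266) and 1.17 ± 0.19 in Dp16 vs WT (adjusted p = 0.000269). Cdca8, borealin, rose by 1.31 and 1.34. Incenp, the scaffold of the complex, rose by 0.89 and 1.03 with the smallest adjusted p of the 39 in each comparison (1.42e-05 in Dp16_2xIFNRs vs WT and 2.76e-06 in Dp16 vs WT, edgeR), at an SE of 0.11 in both.

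The spindle assembly checkpoint rose in 4 of 4 members in each comparison with WT. Bub1b, BubR1, part of the inhibitor of the anaphase-promoting complex, had 63.8, 75.5 and 91.9 CPM in Dp16_2xIFNRs, 73.3, 79.6 and 94.3 in Dp16 and 30.7, 46.1 and 71.7 in WT. Mad2l1, Mad2, another part of that inhibitor, had 57.3, 68.4 and 101 CPM in Dp16_2xIFNRs, 56.3, 71.5 and 91.3 in Dp16 and 22.9, 38.1 and 49.6 in WT. Mad2l1 was free of overlap with WT in both groups, Bub1b only in Dp16. Bub1b rose by 0.74 ± 0.12 on the log2 scale in Dp16_2xIFNRs vs WT (edgeR adjusted p = 0.000172) and by 0.81 ± 0.12 in Dp16 vs WT (adjusted p = 8.59e-05), and Mad2l1 by 1.00 ± 0.13 in each (adjusted p = 3.9e-05 and 3.57e-05). Ttk, the kinase Mps1 that starts checkpoint signalling, had 10.2, 15.0 and 18.7 CPM in Dp16_2xIFNRs, 13.5, 18.4 and 20.2 in Dp16 and 4.78, 7.21 and 14.6 in WT. Its ranges overlapped with WT in both groups. Ttk rose by 0.91 ± 0.19 in Dp16_2xIFNRs vs WT (adjusted p = 0.00122) and by 1.14 ± 0.19 in Dp16 vs WT (adjusted p = 0.000232), and Bub1, a checkpoint kinase at the kinetochore, by 1.27 and 1.20.

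The genes that trigger anaphase held both the largest and the smallest rise in Dp16 vs WT. Ube2c, the ubiquitin-conjugating enzyme that works with the anaphase-promoting complex, had 194, 237 and 339.5 CPM in Dp16_2xIFNRs, 213, 250 and 325 in Dp16 and 37.5, 77.4 and 186 in WT. Its groups did not overlap with WT, and it rose by 1.60 ± 0.29 on the log2 scale in Dp16_2xIFNRs vs WT (3.04-fold, edgeR adjusted p = 0.000687) and by 1.62 ± 0.29 in Dp16 vs WT (3.08-fold, adjusted p = 0.000672). Pttg1, securin, which holds separase inactive, had 28.3, 33.5 and 38.2 CPM in Dp16_2xIFNRs, 27.9, 31.1 and 45.6 in Dp16 and 22.1, 24.9 and 28.6 in WT. Its ranges overlapped with WT in both groups. Its rise was 0.40 ± 0.11 in each comparison (1.32-fold, adjusted p = 0.00742 in Dp16_2xIFNRs vs WT and 0.00828 in Dp16 vs WT). Unlike the others, Pttg1 did not have WT replicate 2 as its highest WT library.

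Cdc20, the activator of the anaphase-promoting complex, had 77.1, 86.3 and 129 CPM in Dp16_2xIFNRs, 87.7, 94.2 and 111 in Dp16 and 25.7, 42.5 and 76.3 in WT, without overlap with WT. Espl1, separase, the protease that cuts cohesin, had 31.2, 43.3 and 62.8 CPM in Dp16_2xIFNRs, 37.0, 45.5 and 52.9 in Dp16 and 12.8, 22.5 and 43.1 in WT, with overlap in both groups. Cdc20 rose by 1.11 ± 0.19 on the log2 scale in Dp16_2xIFNRs vs WT (edgeR adjusted p = 0.000311) and by 1.16 ± 0.19 in Dp16 vs WT (adjusted p = 0.000255). Espl1 rose by 0.92 ± 0.21 (adjusted p = 0.00317) and 0.89 ± 0.21 (adjusted p = 0.00432). Exons of Ube2c share 22.8% of their bases with Tnnc2 on the opposite strand, which held 77 counts in all 18 libraries.

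At the centromere and kinetochore 7 of 7 members rose in each comparison with WT. Cenpa, the centromeric histone H3 variant, had 74.2, 88.1 and 143 CPM in Dp16_2xIFNRs, 76.8, 90.0 and 118 in Dp16 and 23.3, 40.8 and 74.5 in WT, and the lowest Dp16_2xIFNRs library fell just under the highest WT library. Cenpe, the kinetochore motor, had 63.9, 69.7 and 99.2 CPM in Dp16_2xIFNRs, 51.4, 78.5 and 109 in Dp16 and 19.6, 28.9 and 73.2 in WT, with overlap in both groups. Cenpa rose by 1.15 ± 0.20 on the log2 scale in Dp16_2xIFNRs vs WT (edgeR adjusted p = 0.000444) and by 1.14 ± 0.20 in Dp16 vs WT (adjusted p = 0.000517), and Cenpe by 1.08 ± 0.26 (adjusted p = 0.00497) and 1.14 ± 0.26 (adjusted p = 0.00352). The Ndc80 complex, which binds microtubules, rose in all 4 subunits listed. Ndc80 had 26.3, 32.2 and 42.1 CPM in Dp16_2xIFNRs, 27.6, 34.0 and 36.1 in Dp16 and 9.95, 17.4 and 28.3 in WT. Spc24 had 33.4, 38.0 and 62.6 CPM in Dp16_2xIFNRs, 28.7, 42.6 and 47.4 in Dp16 and 9.78, 18.1 and 31.1 in WT. Only the Dp16_2xIFNRs libraries of Spc24 were free of overlap with WT between this pair of genes. Within the complex the log2 fold changes were 0.92 ± 0.14 for Ndc80, 1.21 ± 0.19 for Spc24, 1.33 ± 0.19 for Nuf2 and 1.44 ± 0.23 for Spc25 in Dp16_2xIFNRs vs WT (edgeR adjusted p = 9.98e-05, 0.000187, 9.7e-05 and 0.000197). In Dp16 vs WT these were 0.89, 1.14, 1.29 and 1.42.

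Of the spindle motors, Kif11, which pushes the poles apart, had 98.5, 114 and 158 CPM in Dp16_2xIFNRs, 105, 125 and 158 in Dp16 and 32.1, 52.5 and 107 in WT. Kif4, a chromosome-bound motor, had 38.2, 41.1 and 65.2 CPM in Dp16_2xIFNRs, 43.2, 49.1 and 61.6 in Dp16 and 12.5, 21.6 and 39.7 in WT. Both ranges of Kif11 overlapped with WT, and those of Kif4 only in Dp16_2xIFNRs. Kif11 rose by 1.10 ± 0.21 on the log2 scale in Dp16_2xIFNRs vs WT (edgeR adjusted p = 0.000822) and by 1.16 ± 0.21 in Dp16 vs WT (adjusted p = 0.000627), and Kif4 by 1.06 ± 0.20 (adjusted p = 0.000675) and 1.15 ± 0.20 (adjusted p = 0.000406). Kif2c, the depolymerising motor MCAK, rose by 0.95 and 1.07, and Nusap1, a spindle-associated protein, by 1.37 and 1.40.

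The central spindle and cytokinesis genes rose in 6 of 6 members. Prc1, which bundles the midzone microtubules, had 96.2, 106 and 160 CPM in Dp16_2xIFNRs, 102, 126 and 158 in Dp16 and 19.9, 42.5 and 91.3 in WT, without overlap with WT. Kif20a, the motor MKLP2 that brings the passenger complex to the midzone, had 72.5, 82.1 and 108 CPM in Dp16_2xIFNRs, 68.8, 86.9 and 97.7 in Dp16 and 24.1, 37.5 and 63.9 in WT, also without overlap. Anln, anillin, a scaffold of the contractile ring, had 31.6, 36.9 and 64.8 CPM in Dp16_2xIFNRs, 35.8, 45.9 and 56.0 in Dp16 and 9.90, 14.9 and 36.8 in WT, with overlap in both groups. Prc1 rose by 1.38 ± 0.24 in Dp16_2xIFNRs vs WT (edgeR adjusted p = 0.000446) and 1.48 ± 0.24 in Dp16 vs WT (adjusted p = 0.000306), Kif20a by 1.14 ± 0.17 (adjusted p = 9.22e-05) and 1.12 ± 0.17 (adjusted p = 0.000108), and Anln by 1.21 ± 0.26 (adjusted p = 0.00227) and 1.30 ± 0.26 (adjusted p = 0.00148). The log2 fold changes of the rest, Kif23, Racgap1 (a pair in the centralspindlin complex) and Ect2 (the RhoA activator), were 0.90, 0.73 and 1.11 in Dp16_2xIFNRs vs WT, while 1.01, 0.86 and 1.19 were found in Dp16 vs WT. Exons of Kif20a share 29.3% of their bases with Cdc23 on the opposite strand, and those of Kif4 and Prc1 share 15.1% and 11.1% with Pdzd11 and Rccd1. Over all 18 libraries Cdc23 held 37476 counts beside 54679 for Kif20a. Pdzd11 held 24210 beside 30963 for Kif4, and Rccd1 held 9677 beside 75830 for Prc1.

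Top2a, topoisomerase II alpha, which untangles sister chromatids, had 314, 338 and 461 CPM in Dp16_2xIFNRs, 337, 368 and 469 in Dp16 and 101, 175 and 329.7 in WT. Mki67, the Ki-67 protein of the chromosome surface used as a marker of cycling cells, had 635, 725 and 1300 CPM in Dp16_2xIFNRs, 566, 859 and 1158 in Dp16 and 157, 320.1 and 765 in WT. Only the Dp16 libraries of Top2a were free of overlap with WT. Top2a rose by 0.98 ± 0.19 on the log2 scale in Dp16_2xIFNRs vs WT (edgeR adjusted p = 0.000923) and by 1.05 ± 0.19 in Dp16 vs WT (adjusted p = 0.000604), and Mki67 by 1.21 ± 0.32 (adjusted p = 0.00973) and 1.24 ± 0.32 (adjusted p = 0.00873). Mki67 and Cenpf, a large kinetochore protein, had the widest errors of the 39, and Cenpf the largest adjusted p in each comparison (0.0104 in Dp16_2xIFNRs vs WT and 0.00905 in Dp16 vs WT, edgeR).

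Per length, as RPKM in the authors' deposited table, Ube2c was the most abundant member in both trisomic groups, with a median of 86.6 RPKM in Dp16_2xIFNRs (71.2 to 125) and 95.9 RPKM in Dp16 (79.0 to 116). Mki67 followed at 70.0 RPKM in Dp16_2xIFNRs (61.6 to 130.5) and 84.7 RPKM in Dp16 (56.8 to 106), ranges that overlap those of Ube2c. In WT the order opened with Top2a at 35.5 RPKM (20.1 to 64.2) and Mki67 at 33.7 RPKM (16.3 to 77.3), which also overlap. Ttk was the least abundant member in each group, with medians of 5.02 RPKM in Dp16_2xIFNRs, 6.07 RPKM in Dp16 and 2.63 RPKM in WT. These are levels per length, whereas the fold changes above compare a gene with itself.

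With the interferon receptors back at the normal dose there was no called change in any of the 39 genes. In Dp16_2xIFNRs vs Dp16, 0 of 39 rose and 0 fell (edgeR adjusted p = 1 for each), none had an unadjusted p below 0.05, and 0% and 0.0215% of all tested genes were called higher and lower, with 2.35% at an unadjusted p below 0.05. The median log2 fold change was -0.03, with 13 members above 0 and 26 below, from -0.23 for Ttk to 0.10 for Cdk1. The signs depended on single libraries. The median of the members turned above 0 without Dp16_2xIFNRs replicate 2 (0.04, 25 members above 0), Dp16_2xIFNRs replicate 3 (0.04, 26 above 0), Dp16 replicate 3 (0.00, 20 above 0) or Dp16 replicate 6 (0.02, 22 above 0). Without Dp16_2xIFNRs replicates 1, 5 or 6 or Dp16 replicate 5, left out in turn, 4, 7, 5 and 5 members were above 0. In males alone 29 were above 0 (median 0.08) and in females alone 3 (median -0.16). With a block for a code that some library descriptions share across genotypes, 1 member was above 0 (median -0.18), 10 had an unadjusted p below 0.05 and 0 were called. The 95% intervals of the 39 ran from -0.69 (Mki67) to 0.66 (Birc5) at the outside, and none reached a 2-fold difference. For Incenp the interval was -0.36 to 0.09, and for Ube2c -0.61 to 0.57. A difference within its interval is not excluded for any member. No member had all 6 Dp16_2xIFNRs libraries above or below all 6 Dp16 libraries, where 0.0537% and 0.0322% of genes did.

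**Figure D4:**
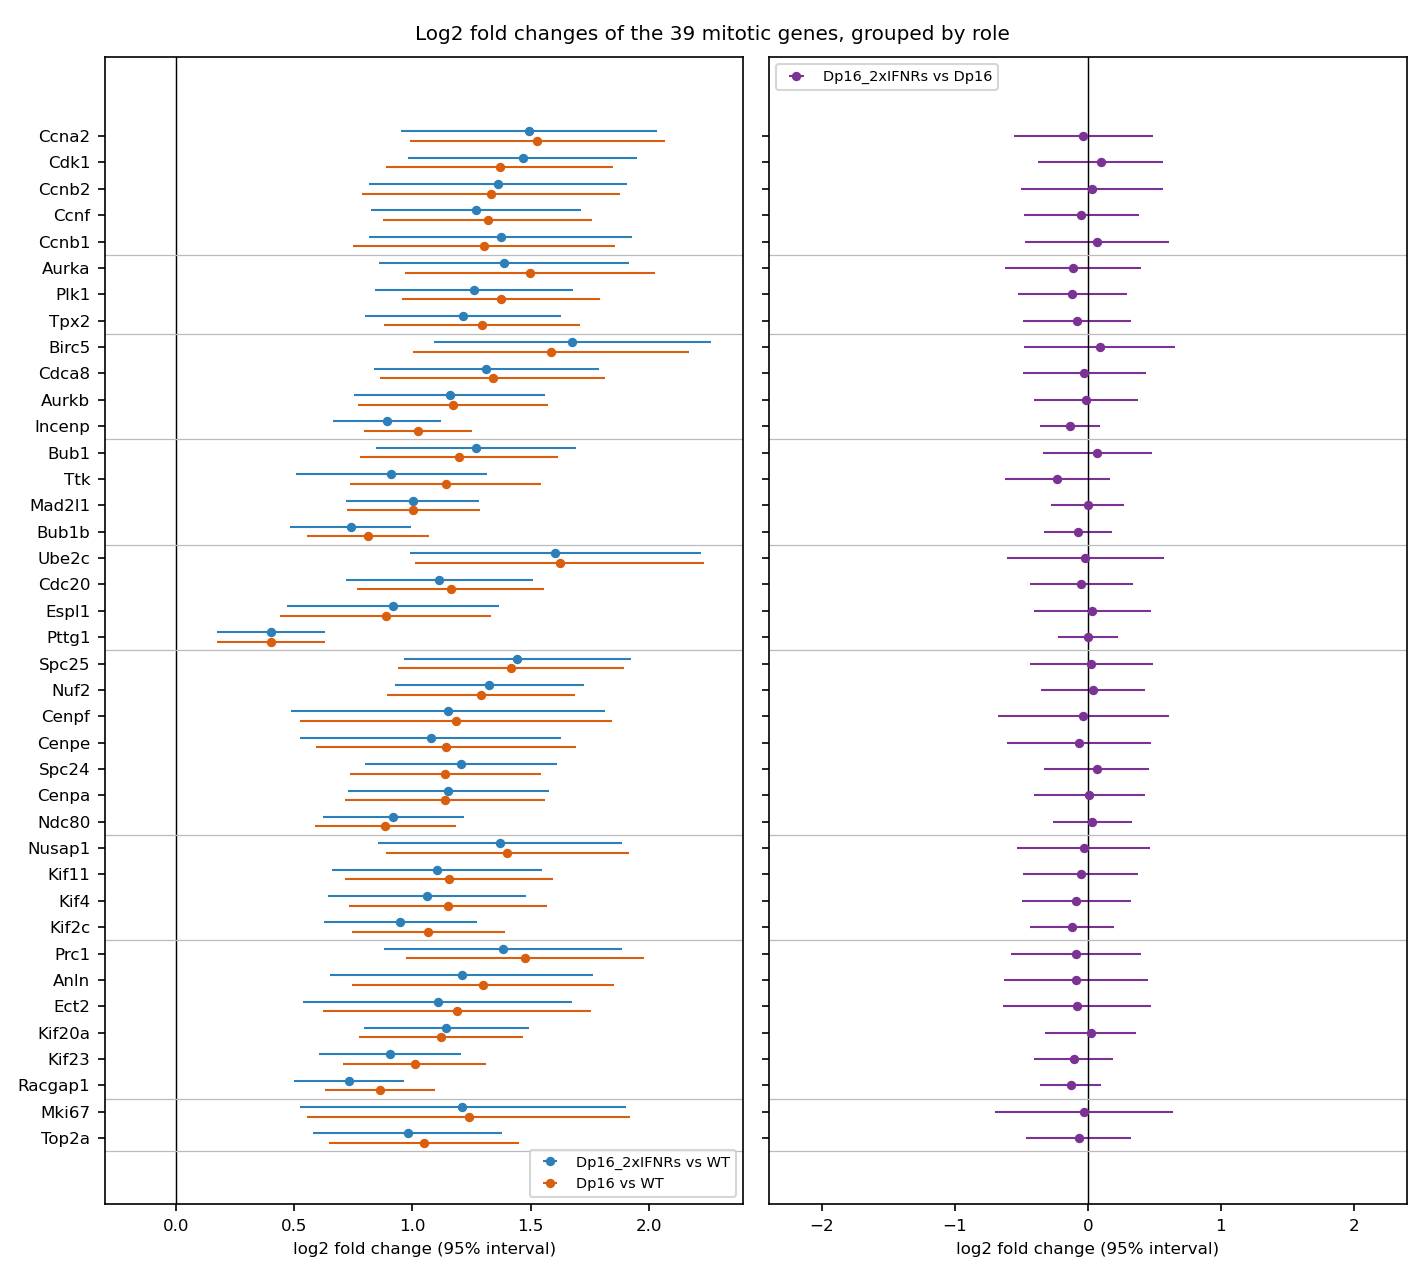
Log2 fold changes with 95% intervals for the 39 genes, in blocks by role and ordered by Dp16 vs WT within each block; left, Dp16_2xIFNRs vs WT (blue) and Dp16 vs WT (orange), right, Dp16_2xIFNRs vs Dp16 (purple). On the left each interval lies above 0, with Pttg1 the lowest, and on the right each interval crosses 0.

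In WT, females had higher levels than males for most members. The summed CPM of the 39 genes was 3919, 4001 and 5616 in Dp16_2xIFNRs females and 3818, 4345 and 5794 in Dp16_2xIFNRs males, 4124, 5108 and 6039 in Dp16 females and 4218, 4232 and 4755 in Dp16 males. In WT it was 2012, 2307 and 3802 in females and 1066, 1580 and 1694 in males. All 3 WT females exceeded all 3 WT males for 36 of 39 genes, where 8.55% of tested genes did so. The count was 0 of 39 in Dp16_2xIFNRs (3.47% of genes) and 5 of 39 in Dp16 (4.67% of genes). Across genotypes, none of the 39 was called in female vs male, where 0.258% of tested genes were called. All 39 log2 fold changes were above 0, with a median of 0.38, and 21 had an unadjusted p below 0.05, where 8.82% of genes did. Blood cell markers moved with sex as well. In female vs male, 13 of 15 neutrophil precursor markers were called higher (median log2 fold change 1.13), while 0 of 10 megakaryocyte and 0 of 19 erythroid markers were called, all of them above 0 (medians 0.57 and 0.45). Their part in the sex difference of the mitotic genes was not tested.

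A test of whether the genotype difference depended on sex called none of the 39 in any contrast (edgeR, adjusted p = 1 for each). At an unadjusted p below 0.05 there were 31 members for Dp16_2xIFNRs vs WT and 9 for Dp16 vs WT, where 4.00% and 2.36% of genes fell, and 0 for Dp16_2xIFNRs vs Dp16, where 2.28% did. Most of these terms were below 0, with a median of -0.89 for Dp16_2xIFNRs vs WT and -0.67 for Dp16 vs WT. In males alone the median log2 fold change of the members was 1.64 in Dp16_2xIFNRs vs WT and 1.54 in Dp16 vs WT, with 38 members higher in each. In females alone it was 0.76 and 0.84, with 1 and 13 members higher, all 39 still above 0. Calls over all genes were fewer in females alone as well. In Dp16_2xIFNRs vs WT 165 of 18789 tested genes were called higher in females alone and 2044 of 18831 in males alone. In Dp16 vs WT the females alone also had fewer such genes than the 1705 in males alone. Whether the lower member counts in females go beyond the fewer calls over all genes was not tested. WT replicate 2, the highest WT library, is female and WT replicate 4, the lowest, is male.

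Erythroid and neutrophil precursor markers also rose in both comparisons with WT. All 19 tested erythroid markers were higher in both comparisons with WT (median log2 fold changes 1.83 in Dp16_2xIFNRs vs WT and 1.75 in Dp16 vs WT), with Epb42 among them and none at 0 in any library. Their summed CPM ran from 6528 to 13720 in Dp16_2xIFNRs, from 6872 to 10760 in Dp16 and from 874.8 to 6243 in WT. For the erythroid sum the WT libraries at the ends matched: WT replicate 2 was the highest WT library on the erythroid sum and on the mitotic sum, and WT replicate 4 was the lowest on both. In the trisomic groups only the high ends matched (Dp16 replicate 3 and Dp16_2xIFNRs replicate 1). The lowest erythroid sums were in Dp16 replicate 2 (6872) and Dp16_2xIFNRs replicate 3 (6528). The lowest mitotic sums were in Dp16 replicate 5 (4124) and Dp16_2xIFNRs replicate 4 (3818). All 15 neutrophil precursor markers were higher (median 2.43 and 2.68), with summed CPM of 3932 to 6588 in Dp16_2xIFNRs, 3466 to 11540 in Dp16 and 461.5 to 2096 in WT. This sum did not match the mitotic sum at its ends. Dp16 replicate 5 had the highest neutrophil precursor sum of Dp16 (11540) and the lowest mitotic sum (4124). Dp16_2xIFNRs replicate 1 had the lowest neutrophil precursor sum of its group (3932) and the highest mitotic sum (5794). The highest WT library on this sum was replicate 5 (2096). All 10 B cell markers fell (median -0.58 and -0.67), from 2798 to 3465 CPM in Dp16_2xIFNRs, 2762 to 3311 in Dp16 and 3852 to 5666 in WT. The part of these shifts in the mitotic result was not tested.

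With the erythroid score as a further term, 0 members were called in Dp16_2xIFNRs vs WT and 1 in Dp16 vs WT (Incenp, log2 fold change 0.49, edgeR adjusted p = 0.0387), with median log2 fold changes of 0.28 and 0.34. With the neutrophil precursor score as the term, 0 were called in both, at medians of 0.35 and 0.34 with a median SE of 0.59 and 0.62. Over all 18634 genes, 97 and 110 were called higher with the erythroid term and 0 and 0 with the neutrophil precursor term. Few calls thus remained for any gene in these fits. Both scores differ between genotypes, so in such a fit the genotype and the marker level cannot be told apart.

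**Figure D5:**
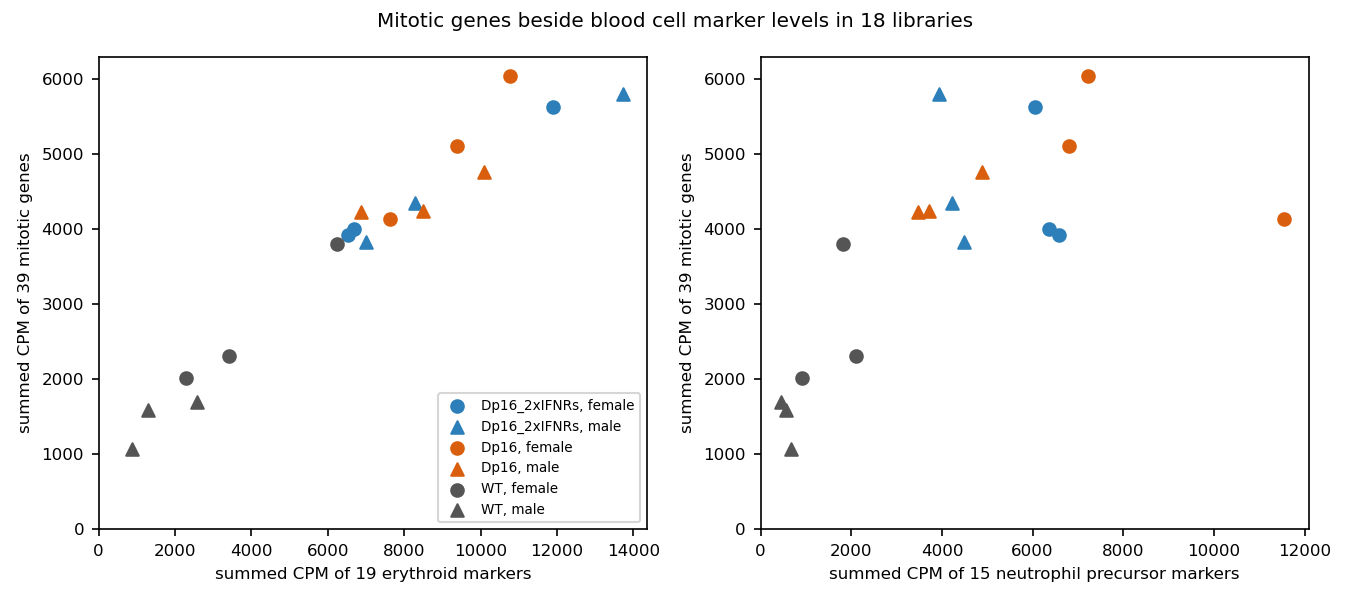
Summed CPM of the 39 mitotic genes (y axis) against the summed CPM of 19 erythroid markers (left) and 15 neutrophil precursor markers (right) in the 18 libraries, by genotype and sex. In the left panel the highest WT library (6243 CPM erythroid, 3802 CPM mitotic) sits beside the lowest trisomic libraries; in the right panel WT libraries reach at most 2096 CPM of neutrophil precursor markers.

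Of the other cell types, megakaryocyte and basophil markers also mostly rose, and the rest were less uniform. Germinal centre B cell markers were higher for 4 and lower for 1 of 8 in each comparison, with summed CPM of 145.2 to 225.9 in Dp16_2xIFNRs, 165.8 to 224.1 in Dp16 and 131.8 to 219.1 in WT. Of 10 megakaryocyte markers all were higher, and of 6 basophil markers 5 were. Among 10 T cell markers 1 was lower and 0 were higher, and among 7 plasma cell markers 1 was higher and 1 lower. Among 7 red pulp macrophage markers 2 were higher in Dp16_2xIFNRs vs WT against 1 in Dp16 vs WT. Over all tested genes 17.3% were called higher and 14.2% lower in Dp16_2xIFNRs vs WT, and 16.6% and 13.2% in Dp16 vs WT. No shift is therefore read from the T cell, plasma cell or red pulp macrophage counts. Of 8 pancreatic acinar markers 1 passed the filter, Cela1, and Clps was at 0 in 18 libraries. Whether germinal centre, megakaryocyte or basophil markers contribute to the mitotic counts was not tested.

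Beyond the 39, 104 other mitotic genes were sorted into lists, and all passed the filter. In Dp16_2xIFNRs vs WT 86 rose and 1 fell (17.3% and 14.2% of tested genes were called higher and lower), with a median log2 fold change of 0.86. In Dp16 vs WT 87 rose and 0 fell (16.6% and 13.2% of tested genes), with a median of 0.90, and in Dp16_2xIFNRs vs Dp16 0 rose and 0 fell. The kinetochore list rose in 25 of 25 and condensin in 8 of 8 in each comparison with WT. Among them were Pmf1, a subunit of the Mis12 complex (0.64 in Dp16_2xIFNRs vs WT and 0.71 in Dp16 vs WT), Ncaph, a condensin I subunit (1.08 and 1.15), and Smc4, the condensin ATPase (0.41 and 0.50). Mis18a, which licenses the loading of the centromeric histone, was the only 1 of the 104 inside the extra interval and rose by 1.01 and 0.99.

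Mitotic kinases and regulators rose in 11 of 13 in Dp16_2xIFNRs vs WT and 13 of 13 in Dp16 vs WT, among them Cks1b, a Cdk subunit (1.13 and 1.11), and Cdc25c, the phosphatase that activates Cdk1 (1.25 and 1.31). Spindle motors and microtubule proteins rose in 20 of 23 with 1 lower in Dp16_2xIFNRs vs WT and in 21 of 23 in Dp16 vs WT, among them Tacc3 (1.18 and 1.23) and Kifc1 (1.27 and 1.31). The lower gene was Numa1, which anchors microtubules at the poles (-0.35 ± 0.12 in Dp16_2xIFNRs vs WT, edgeR adjusted p = 0.0288, and -0.29 ± 0.12 in Dp16 vs WT, adjusted p = 0.0736), named because it was the only one and so after its value was seen. It passed the test in 1 of the 2 comparisons, and the difference between them was not tested for this gene beyond Dp16_2xIFNRs vs Dp16, where it was not called.

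The list of checkpoint proteins and anaphase-promoting complex subunits rose in 16 of 26 in Dp16_2xIFNRs vs WT and 15 of 26 in Dp16 vs WT, with median log2 fold changes of 0.41 and 0.35. Zwint and Zwilch, kinetochore proteins of the checkpoint, rose by 0.63 and 0.97 in Dp16_2xIFNRs vs WT and by 0.67 and 0.98 in Dp16 vs WT. Named after their values were seen, the subunits Anapc1, Anapc2, Anapc4, Anapc7, Anapc10, Anapc16, Cdc16, Cdc26 and Cdc27 were not called in either comparison. Their log2 fold changes lay between -0.16 (Anapc1) and 0.27 (Anapc10) in Dp16 vs WT. Cdc20 and Ube2c, which work with that complex, rose by 1.16 and 1.62 there. The transcription factors of mitotic genes rose in 6 of 9 in Dp16_2xIFNRs vs WT and 5 of 9 in Dp16 vs WT. Mybl2, B-Myb, rose by 1.28 ± 0.24 and 1.35 ± 0.24 (edgeR adjusted p = 0.000811 and 0.000597) and Lin9, a MuvB subunit, by 0.36 and 0.54, while Nfya, an NF-Y subunit named after its values were seen, had -0.04 ± 0.08 and -0.09 ± 0.08 (adjusted p = 0.779 and 0.458).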

How the data were processed

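The authors deposited read counts per gene and RPKM values for the 18 spleen libraries. Tools listed in the submitters' processing notes, without roles, are HTSeq 0.6.1, HISAT2 2.1.0, SAMtools 1.5, FastQC 0.11.5 and bcl2fastq, with build GRCm38. Per the labels' protocols, RNA was taken up in TRIzol and libraries were poly(A)-selected and strand-specific. The deposited RPKM equalled counts scaled by library total and gene length for 11538 genes of 100 or more counts everywhere (largest relative deviation 8.9e-16), and the authors' RPKM were used only to compare levels between genes and in an alternative fit.

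Library totals ran from 33998427 to 53021480 counts, so a count of 0 allows up to 3 counts, or 0.0566 to 0.0882 CPM, for counting error only. Gm42418, a gene model over ribosomal RNA sequence, took 0.691% to 5.51% of counts. Low genes were removed by filterByExpr on genotype. The 18 libraries were TMM-scaled and fitted together with genotype and sex terms by edgeR 4.0.16 (robust quasi-likelihood, R 4.3.3), and a further fit held their interaction. Calls are at a Benjamini-Hochberg adjusted p below 0.05 over 18634 genes. On simulated counts for Dp16 vs WT over 18634 genes, 67% of 1.5-fold and 92% of 2-fold changes were recovered, with 11 false calls. Each fold was given to 100 genes with a mean above 100 counts. Recovery in lower genes, or with as many genes changed as in these data, was not tested. Chi-square values per degree of freedom were 35.1 to 200 for 45 within-genotype library pairs, so none was a copy. Some descriptions share a code across genotypes (7 pairs of libraries), whose meaning the labels do not give; it was used as a block in an alternative. Nothing states how the animals relate, so p-values measure the spread between these samples.

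The members and lists were chosen with earlier results of these data known. By the rule for named genes, full values are given for the members with the largest and smallest change in Dp16 vs WT and for 27 members picked by role, and for each other list the 2 genes with the smallest p in Dp16 vs WT; other names are marked as chosen after their values were seen. Promoters are from RefSeq GRCm38.p6, matched by symbol. Gene positions are from GENCODE vM21 on GRCm38, and the deposited table uses vM24, per its name. Alternatives were RLE and upper quartile scaling, no filter and a filter of 1 CPM in 6 libraries, DESeq2 1.42.0, limma-trend (limma 3.58.1) on log2(RPKM + 0.1), other terms and blocks, subsets of libraries and omission of each library in turn.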

Additional observations from a re-analysis of the deposited data

Results flagged for a closer look

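In 120 groups of 6 libraries, 9 had 1 library far from the other 5 by Dixon's test at its 95% critical value, and chance flags about 1 in 20 groups. Each of the 9 was a high library. Among Dp16_2xIFNRs libraries, replicate 1 stood apart for Mki67 at 1300 CPM (the others 635 to 799) and for Cenpe at 99.2 CPM (63.9 to 71.3), and replicate 6 for Nuf2 at 101 CPM (57.2 to 71.4) and Cenpa at 143 CPM (74.2 to 94.5). Among Dp16 libraries, replicate 3 stood apart for Birc5 at 295 CPM (143 to 194) and Pttg1 at 45.6 CPM (27.9 to 34.5). Among WT libraries, replicate 2 stood apart for Spc25 at 34.5 CPM (9.83 to 17.0), Birc5 at 132 CPM (28.4 to 65.9) and Cenpe at 73.2 CPM (19.6 to 38.7).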

How the results depend on the processing

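All 39 members were called higher than WT in both comparisons under RLE and upper quartile scaling, no filter, 1 CPM in 6 libraries, DESeq2, limma-trend on RPKM, genotype alone, 12 libraries, and omission of any single library (39 to 39, largest adjusted p 0.0293). Omission of WT replicates 2 and 4 together, chosen after seeing the data, also left 39 and 39 and males alone 38 and 38. In Dp16_2xIFNRs vs WT and Dp16 vs WT, 38 and 35 members were called without the libraries over 4% Gm42418, and 39 and 38 with the description code block, where Pttg1 had an adjusted p of 0.0576 in Dp16 vs WT. The only code shared by a WT and a Dp16 library is that of WT replicate 4, the lowest WT library for 38 members. Libraries with an unshared code do not inform the genotype differences in that block, so it rests on few libraries. The members higher in Dp16_2xIFNRs vs WT and Dp16 vs WT numbered 0 and 1 with the erythroid score term, 0 and 0 with the neutrophil precursor term, and 1 and 13 in females alone; the cause was not tested. For the other mitotic genes the higher counts were 1 and 1, 0 and 0, and 1 and 16 under the same settings. Calls over all genes were also fewer under these settings than with genotype and sex terms alone in all 18 libraries. The other mitotic genes lower in Dp16 vs WT numbered 1 under upper quartile scaling, 2 with limma-trend, 1 with the replicate block and 1 without the libraries over 4% Gm42418, and 0 to 1 with single libraries left out. Those lower in Dp16_2xIFNRs vs WT numbered 0 with either score term, in females or males alone, without the Gm42418 libraries and without WT replicates 2 and 4, and 0 to 1 with single libraries left out. Each code in the description holds libraries of a single sex. With a block for that code a female vs male difference therefore cannot be estimated, and the 1 member called there is not read.

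Of the members' log2 fold changes in Dp16_2xIFNRs vs WT and Dp16 vs WT, the erythroid term turned Espl1 to -0.0064 and -0.013, Cenpf to -0.11 and -0.057, and Mki67 to -0.13 and -0.079. The neutrophil precursor term turned Cenpe to -0.033 and -0.014, Ect2 to -0.27 and -0.27, and Anln to -0.25 and -0.23. In Dp16_2xIFNRs vs Dp16, Cdk1 turned to -0.020 with the description code block, where 38 of 39 members were below 0, and to -0.026 in females alone, where 36 were.

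Upper quartile scaling moved the median of all genes in Dp16 vs WT to -0.075 and limma-trend on RPKM to -0.13, and the share of calls that were higher to 43.4% and 36.1%, against 55.7%. The members' medians were 1.13 and 1.10 there. Sample numbers shared between genotypes are not known to pair animals: same-numbered libraries correlated at a mean of 0.019 over 18 pairs (-0.132 to 0.201), and a replicate block left 39 and 39 members called higher. The lowest count of any member in any library was 193 (Ttk in WT).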
